A study of Homo sapiens with 6 samples.

Results

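Across the 6 RNA-seq libraries of this series 7 genes were followed: ARL6IP1, SERINC3, ATXN10, DCAF12, ME2, COX20 and ZNF93. They are 7 of 24789 rows with values in the deposited table, and all 7 passed the filter on low counts, as did 16250 rows in all. They were picked by symbol, because their levels were about 2-fold apart between replicates 1 and 2 of the 2 labelled groups and because most of them ran the other way in replicate 3. The levels below are therefore a description of the genes picked, and nothing about them is supported by a test. The set is called here by the gene it was picked to follow, AEBP1, although ZNF93 ran opposite to AEBP1 in all 6 libraries and COX20 parted from it in 1.

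The cells were LX-2, an immortalised human line of hepatic stellate cells, the cells that lay down scar matrix in injured liver, recorded as wild type in the control group and as AEBP1 knockdown in the other. One group received scrambled siRNA and the other AEBP1 siRNA, both at 50 nM by lipid transfection, and RNA was taken after 48 hours, with 3 libraries per group. The sources used here give neither the siRNA sequences nor whether the libraries came from separate transfections, so the spread between libraries may be technical. Total counts ran from 34433510 to 49432960. Of 10 stellate markers 9 passed the filter, COL1A1 at 1410 to 1620 CPM (CPM being counts relative to the scaled library total) and VIM at 953 to 1290 CPM. ACTA2, the smooth muscle actin of activated stellate cells, was low, at 3.2 to 5.72 CPM. DES (desmin, an intermediate filament of stellate cells) had 0 to 9 counts. Of 13 markers of hepatocytes, epithelium, leukocytes and endothelium, 12 stayed under 1 CPM in every library, and CD14 was at 1.41 to 2.7 CPM. The library labelled AEBP1 siRNA 1 stood apart on the first principal component, with a score of 65.9 where the other 5 lay between -17.3 and -5.74. In bulk RNA, fewer cells that express a gene and less of its RNA per cell cannot be told apart.

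An siRNA guides the RNA-induced silencing complex to transcripts that pair with it, and pairing of the guide's seed alone can also lower transcripts other than the intended one. The 7 genes sit in different parts of the cell. ARL6IP1 is a membrane protein that shapes the tubules of the endoplasmic reticulum, and SERINC3 is a multipass membrane protein with lipid scramblase activity that restricts infectivity of retroviral particles. DCAF12 is a substrate receptor of the CUL4-DDB1 ubiquitin ligase, and ATXN10 is a cytoplasmic protein whose intronic repeat expansion causes a spinocerebellar ataxia. ME2 is the mitochondrial malic enzyme, which turns malate into pyruvate, and COX20 is a chaperone that helps COX2 into cytochrome c oxidase. ZNF93 is a zinc finger repressor with a KRAB domain that binds LINE-1 retrotransposons and recruits TRIM28.

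AEBP1, the targeted gene, is given first, since it checks the labels. Its level was 53.6, 48.7 and 25.1 CPM in the scrambled-labelled replicates 1, 2 and 3, and 29.7, 27.7 and 48.3 CPM in the siRNA-labelled replicates 1, 2 and 3. The library labelled scrambled 3 was the lowest of the 6, and the one labelled AEBP1 siRNA 3 was level with scrambled 2. All directions below are those of the labels, against which AEBP1 goes in replicate 3, and scrambled 1 or AEBP1 siRNA 1 stands for the library labelled so.

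Whether the 7 transcripts hold stretches of AEBP1 sequence bears on which of them an siRNA made against AEBP1 could meet by full pairing. Without the siRNA sequences, neither target sites nor seeds were searched. In their place, the longest stretch that each gene's longest coding transcript shares with that of AEBP1 (4081 bases, 62.4% G and C) was found on the sense strand of GENCODE v29. These stretches are printed 5′ to 3′, to show how short they are.
ARL6IP1: tccacctgcca
SERINC3: cctacccctac
ATXN10: cccaggccgcc
DCAF12: tccctttcccgg
ME2: ccttcatggagc
COX20: ctctcccgcccct
ZNF93: ttcagttacctg
They were 11 bases long for ARL6IP1, SERINC3 and ATXN10, where 96.4% of 13851 coding genes tested shared at least as much with AEBP1. They were 12 bases long for DCAF12, ME2 and ZNF93 (77.9% of genes) and 13 bases for COX20 (43.4%). The median over all genes was 12 and the longest 23. The stretch of COX20 lay in the 5′ UTR of both transcripts. That of ZNF93 lay in the coding part of AEBP1 and in the 3′ UTR of ZNF93. The 7 genes thus shared no longer stretch with AEBP1 than the median gene, except COX20. Nothing follows from this about pairing of a seed.

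The transcripts themselves differed in build. ME2 had the longest, 9415 bases with a 3′ UTR of 7073 bases, and ARL6IP1 the shortest, 2409 bases with a 3′ UTR of 1585 bases, where the median gene had 3393 bases. SERINC3, ATXN10 and DCAF12 had 3′ UTRs of 2865, 1636 and 1963 bases, and COX20 and ZNF93 of 1881 and 757 bases. Their G and C content ran from 40.3% in ZNF93 to 47.1% in DCAF12, below the 62.4% of AEBP1.

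ARL6IP1 (ENSG00000170540) had 400, 410 and 152 CPM in the scrambled-labelled replicates 1, 2 and 3. It had 166, 170 and 402 CPM in the siRNA-labelled replicates 1, 2 and 3. The libraries labelled scrambled 1 and 2 and AEBP1 siRNA 3 thus sat at one level and the other 3 at a lower one, with the labelled groups overlapping. The 95% counting intervals (exact Poisson, which cover counting error only) of the 3 high libraries overlapped between neighbours, from 394 to 416 CPM. Scrambled 3, at 149 to 156 CPM, lay just under AEBP1 siRNA 1, at 161 to 170 CPM. Between replicates 1 and 2 of the labelled groups the log2 difference, AEBP1 siRNA minus scrambled, was -1.27 (2.41-fold lower). In replicate 3 it was 1.4 (2.64-fold higher). Per length, ARL6IP1 was the most abundant of the 7, at 56.4 to 151 FPKM (fragments scaled to transcript length and library size).

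SERINC3 (ENSG00000132824) had 357, 357 and 167 CPM in the scrambled-labelled replicates 1, 2 and 3, and 146, 174 and 358 CPM in the siRNA-labelled replicates 1, 2 and 3. The 3 high libraries read 357 to 358 CPM, and the lowest was the library labelled AEBP1 siRNA 1. The log2 difference was -1.16 in replicates 1 and 2 and 1.1 in replicate 3. Its deposited level was 30.2 to 71.4 FPKM.

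DCAF12 (ENSG00000198876) had 69.8, 62 and 31.4 CPM in the scrambled-labelled replicates 1, 2 and 3, and 28.5, 31.4 and 72.2 CPM in the siRNA-labelled replicates 1, 2 and 3. Here the library labelled AEBP1 siRNA 3 was the highest of the 6. Its counting interval, 69.7 to 74.9 CPM, overlapped that of scrambled 1 and lay above that of scrambled 2, 59.8 to 64.2 CPM. The log2 difference was -1.14 in replicates 1 and 2 and 1.2 in replicate 3.

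ATXN10 (ENSG00000130638) had 73.6, 67.2 and 24.5 CPM in the scrambled-labelled replicates 1, 2 and 3, and 31.1, 26 and 66.8 CPM in the siRNA-labelled replicates 1, 2 and 3. Its highest library was 3-fold above its lowest, a wider range than for the other 4 genes that ran with AEBP1 in every library. The log2 difference was -1.31 in replicates 1 and 2 and 1.45 in replicate 3.

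ME2 (ENSG00000082212) had 84.6, 83 and 40.6 CPM in the scrambled-labelled replicates 1, 2 and 3, and 42, 43.7 and 84 CPM in the siRNA-labelled replicates 1, 2 and 3. Within the 3 high libraries, and within the 3 low ones, the counting intervals of neighbours overlapped. The log2 difference was -0.97 (1.96-fold lower) in replicates 1 and 2, the smallest of the 7, and 1.05 in replicate 3. The deposited FPKM of ME2 spread the high libraries further apart, in the same order, with 9.9 FPKM in scrambled 1, 9.23 in AEBP1 siRNA 3 and 8.02 in scrambled 2. Counts per FPKM for ME2 varied by 0.28 on the log2 scale between libraries, where the median gene varied by 0.06.

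COX20 (ENSG00000203667) followed another course. It had 18.7, 18.7 and 5.5 CPM in the scrambled-labelled replicates 1, 2 and 3, and 7.48, 6.99 and 7.9 CPM in the siRNA-labelled replicates 1, 2 and 3. Only the libraries labelled scrambled 1 and 2 were high. The library labelled AEBP1 siRNA 3, in which AEBP1 was high, was 2.35-fold below scrambled 1 and 2 for COX20, where it was within 1.1-fold of them for the other 6 genes. The log2 difference was -1.36 in replicates 1 and 2 and 0.52 (1.43-fold higher) in replicate 3, so the replicate 3 pair still ran the other way, by less. The counting interval of scrambled 3, 4.83 to 6.24 CPM, lay below that of AEBP1 siRNA 3, 7.06 to 8.8 CPM. The counts behind these levels were 241 in scrambled 3 and 260 to 326 in the libraries labelled AEBP1 siRNA.

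ZNF93 (ENSG00000184635) was the mirror image of the first 5. It had 15.4, 16.1 and 36.6 CPM in the scrambled-labelled replicates 1, 2 and 3, and 37, 34.7 and 14.6 CPM in the siRNA-labelled replicates 1, 2 and 3. The counting intervals of neighbours overlapped within the 3 high libraries and within the 3 low ones. The log2 difference was 1.18 (2.27-fold higher) in replicates 1 and 2 and -1.32 (2.5-fold lower) in replicate 3.

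**Figure D1:**
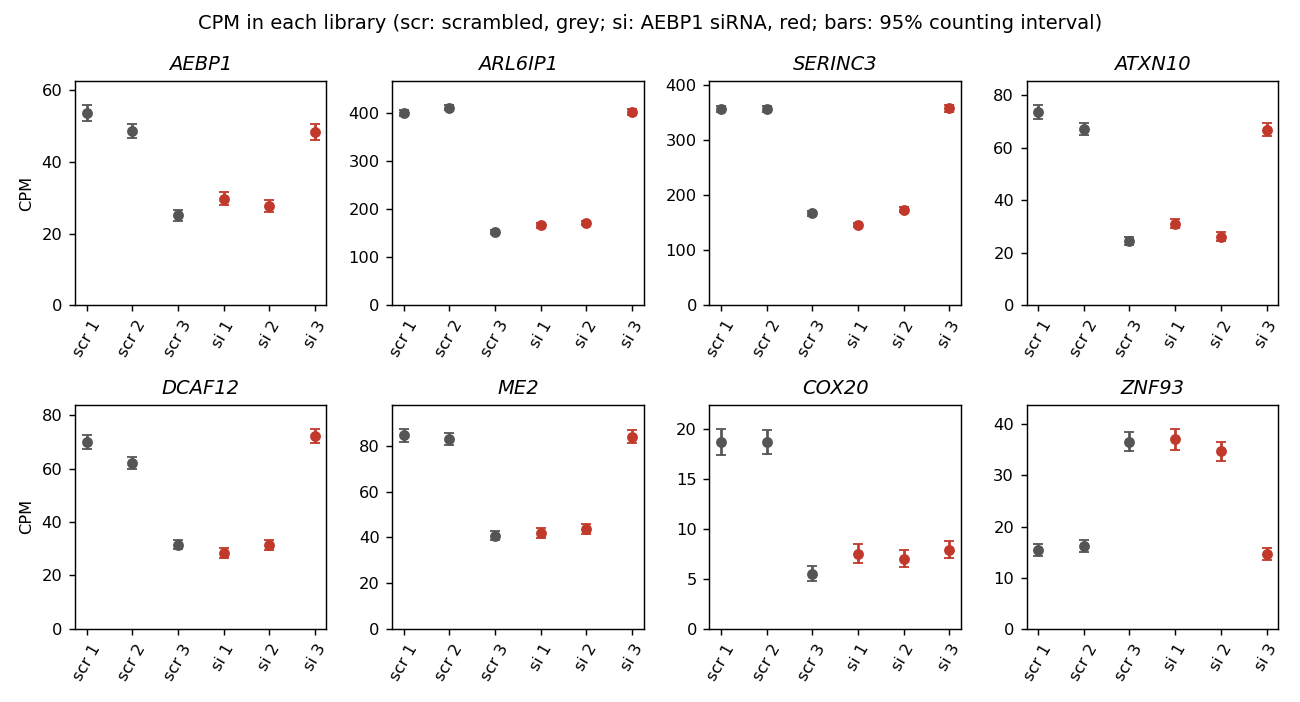
Level in CPM on the vertical axis of each panel, with 1 point per library (grey, labelled scrambled 1 to 3; red, labelled AEBP1 siRNA 1 to 3) and 95% Poisson counting intervals as bars. AEBP1, ARL6IP1, SERINC3, ATXN10, DCAF12 and ME2 are high in scrambled 1 and 2 and AEBP1 siRNA 3, ZNF93 is low in those same libraries, and COX20 is high in scrambled 1 and 2 alone.

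The 250 bases before the transcript start are printed for ARL6IP1, SERINC3 and ZNF93, from RefSeq on GRCh38.p14, 5′ to 3′ on the gene's strand. Capitals mark CCAAT (the box bound by NF-Y), GGGCGG (the GC box bound by SP1) and CCGGAA (an ETS core) on either strand.
ARL6IP1, chr16:18801550-18801799, minus strand: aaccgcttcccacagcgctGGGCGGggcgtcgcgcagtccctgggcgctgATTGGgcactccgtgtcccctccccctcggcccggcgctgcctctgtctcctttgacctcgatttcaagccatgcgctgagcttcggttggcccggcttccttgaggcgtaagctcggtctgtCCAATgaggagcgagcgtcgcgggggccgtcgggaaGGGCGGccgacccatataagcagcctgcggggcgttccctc
SERINC3, chr20:44522071-44522320, minus strand: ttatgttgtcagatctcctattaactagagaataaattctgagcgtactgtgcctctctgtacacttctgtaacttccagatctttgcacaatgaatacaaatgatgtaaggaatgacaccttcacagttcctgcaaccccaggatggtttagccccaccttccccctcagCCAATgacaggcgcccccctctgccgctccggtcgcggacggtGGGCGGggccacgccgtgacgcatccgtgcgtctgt
ZNF93, chr19:19900696-19900945, plus strand: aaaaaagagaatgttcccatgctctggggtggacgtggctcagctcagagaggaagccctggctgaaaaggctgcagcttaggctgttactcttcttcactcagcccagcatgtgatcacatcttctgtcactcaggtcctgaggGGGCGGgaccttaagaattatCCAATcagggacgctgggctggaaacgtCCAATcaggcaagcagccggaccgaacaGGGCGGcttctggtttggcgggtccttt
CCAAT occurred 2 times before ARL6IP1, 1 time before SERINC3 and 2 times before ZNF93, and 32% of 35116 such RefSeq windows hold it. GGGCGG occurred 2, 1 and 2 times, and 42.6% of windows hold it. CCGGAA occurred in none of these 3 windows, and 14.5% of all windows hold it. CCAAT and GGGCGG thus occurred in all 3 printed windows, and whether either bears on the levels of these genes was not tested. Before ME2, CCAAT occurred 2 times, GGGCGG 3 times and CCGGAA 1 time. ATXN10 held none of the 3 motifs, and DCAF12 held GGGCGG and CCGGAA 1 time each and no CCAAT. COX20, with 3 starts, held GGGCGG 2 to 3 times, CCGGAA 2 times before one of them, and no CCAAT. A further start of ARL6IP1 held GGGCGG 1 time and no CCAAT. A match is a description of the letters and not a site.

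The library labelled AEBP1 siRNA 1, which stood apart, was read against AEBP1 siRNA 2. Against scrambled 1 and 2, the log2 difference of AEBP1 siRNA 1 alone and of AEBP1 siRNA 2 alone was -1.29 and -1.25 for ARL6IP1, -1.29 and -1.04 for SERINC3, and -1.18 and -1.43 for ATXN10. It was -1.21 and -1.06 for DCAF12, -1 and -0.94 for ME2, -1.31 and -1.41 for COX20, and 1.23 and 1.14 for ZNF93. The absolute log2 difference between scrambled 1 and 2 was at most 0.17 for the 7 genes, and that between AEBP1 siRNA 1 and 2 at most 0.26. Over all 16250 genes tested, those with few counts included, the median absolute difference between those pairs was 0.131 and 0.323. Since the 7 genes were picked for a difference between these same pairs, small differences within them may follow from the selection. Nothing is read from them.

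In the comparison of the labelled groups with all 6 libraries, 0 of the 7 genes were called by edgeR's quasi-likelihood test at an adjusted p under 0.05, where 0.00615% of all genes tested were called. Only COX20 had an unadjusted p under 0.05 (1 of 7), as did 1.33% of all genes, and DESeq2 called 0. Since the genes were picked partly for opposite courses in replicate 3, nothing is read from this. ARL6IP1 averaged 321 CPM ± 146 (SD, n = 3) under the scrambled label and 246 CPM ± 135 under the other, with a log2 fold change of -0.38 (SE 0.441). COX20, with 14.3 CPM ± 7.59 and 7.46 CPM ± 0.452, had the largest estimate, -0.94 (SE 0.402). ZNF93 had 22.7 CPM ± 12 and 28.7 CPM ± 12.3, a log2 fold change of 0.34 (SE 0.42). Those of SERINC3, ATXN10, DCAF12 and ME2 were -0.38, -0.41, -0.3 and -0.29. In all 7 the labelled groups overlapped, as they did for all but 5.93% of the genes tested. With replicate 3 of both groups left out, the contrast the genes were picked on, 0 of 7 were called by edgeR, where 0.00614% of genes were, and 7 had an unadjusted p under 0.05, as did 4.7% of genes.

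In replicates 1 and 2, 5 of the 7 genes were at least 2-fold lower under the siRNA label, as were 2.52% of all genes tested, and 1 was at least 2-fold higher, as were 1.57%. In replicate 3, 5 were at least 2-fold higher, as were 2.76%, and 1 at least 2-fold lower, as were 2.74%. All 7 had log2 differences of opposite sign in the 2 comparisons, as did 56.2% of all genes. ARL6IP1, SERINC3, ATXN10 and DCAF12 were both 2-fold lower in replicates 1 and 2 and 2-fold higher in AEBP1 siRNA 3 against scrambled 3, a course shared by 86 genes in all (0.529%). ZNF93 was 2-fold higher and then 2-fold lower, as were 53 genes (0.326%). The 7 are thus a selection from a longer series of genes. Of 3769 genes averaging 5 CPM or more whose 2 pairs of libraries did not overlap, 39 were lower by at least as much as ME2, 6 of the 7 among them, and 14 were higher by at least as much as ZNF93, itself among them. Just outside the difference of ME2 stood IL1B at -0.96, ST6GALNAC6 at -0.95 and JAG1 at -0.95. Just inside it stood COL6A3 at -0.97 and OAS1 at -0.98.

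**Figure D2:**
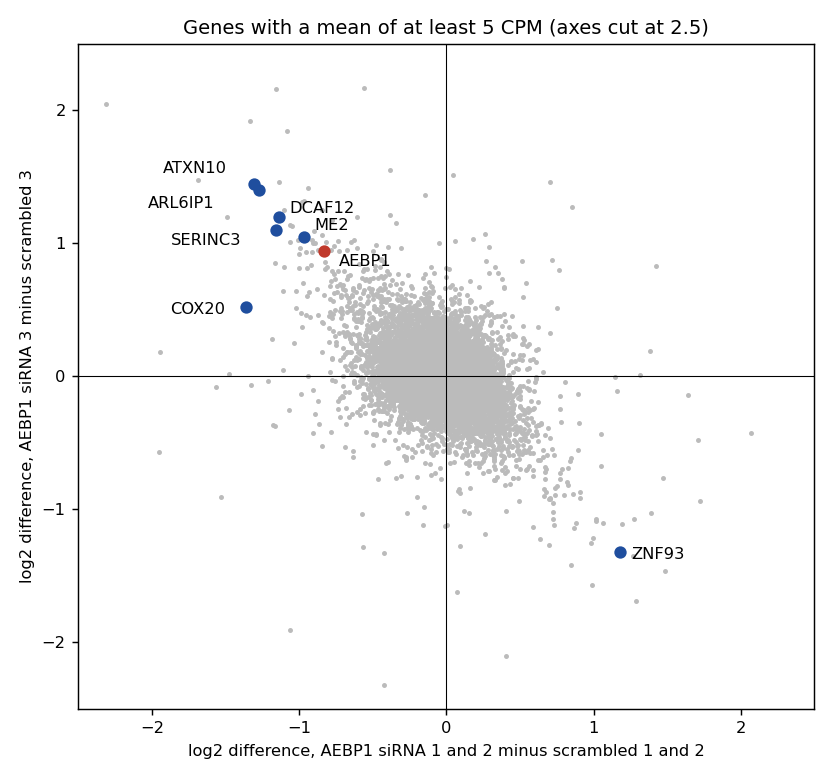
Log2 difference of AEBP1 siRNA 1 and 2 minus scrambled 1 and 2 (horizontal) against that of AEBP1 siRNA 3 minus scrambled 3 (vertical), 1 grey point per gene averaging 5 CPM or more, the 7 genes in blue and AEBP1 in red, both axes ending at 2.5. ARL6IP1, SERINC3, ATXN10, DCAF12 and ME2 lie at upper left beside AEBP1, ZNF93 lies at lower right at 1.18 and -1.32, and COX20 lies at -1.36 and 0.52, below the others on the left.

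Likeness between profiles was measured as the root mean square difference of log2 CPM over the 6 libraries, each gene centred on its own mean. SERINC3 and DCAF12 were the closest pair, at 0.0728, and no gene outside the set averaging 5 CPM or more was closer to either. ARL6IP1 and ATXN10 were 0.105 apart. Within the set, AEBP1 was closest to ME2, at 0.0959, and farther from ATXN10, at 0.246, whose range was wider. Of the genes outside the set averaging 5 CPM or more, 8 were closer to AEBP1 than ME2 was. For DCAF12, SERINC3, ARL6IP1, ATXN10 and COX20 these counts were 82, 83, 147, 168 and 2325. The set is thus not made up of the genes nearest to AEBP1 in profile. COX20 was 0.419 to 0.491 from the 5 genes that ran with AEBP1 and 0.407 from AEBP1. With its sign turned, ZNF93 was 0.0605 from DCAF12, 0.0766 from ARL6IP1 and 0.474 from COX20. These distances rest on 6 libraries that the selection used, and they are a description.

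Outside the set, 11059 annotated genes averaging 5 CPM or more were compared in the same way. The closest to ARL6IP1 were C1orf131 at 0.115 and CDCA8, a subunit of the chromosomal passenger complex, at 0.12. C1orf131 was also closest to ATXN10, at 0.08, followed by MGME1, a mitochondrial exonuclease, at 0.135. EIF3J, a subunit of translation initiation factor 3, came first for SERINC3, DCAF12 and ME2, at 0.0915, 0.108 and 0.0446. C12orf49 came second for SERINC3 at 0.0943, and CDCA8 for DCAF12 and ME2 at 0.113 and 0.0483. For ZNF93, ZNF267, another zinc finger gene, was among the 2 closest, at 0.121. COX20 had no close match, its nearest being ALKBH4 at 0.359 and LBH at 0.364, against a median of 0.703 over all genes compared. For AEBP1 itself the closest were PSAT1, an enzyme of serine synthesis, at 0.037 and JKAMP at 0.0394.

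The neighbours of each gene on its chromosome, which were not picked for their levels, were read next. In RefSeq gene order, 14 tested genes flank the 7. For ARL6IP1 on chromosome 16 the neighbours were RPS15A and SMG1, at log2 differences of 0.01 and -0.5 in replicates 1 and 2. SMG1, a kinase of nonsense-mediated decay, had 155 CPM in AEBP1 siRNA 1 and 310 to 419 CPM in the other 5 libraries, so its difference rests on that library. TTPAL and PKIG beside SERINC3 on chromosome 20 were at 0.03 and -0.11. FBLN1 and WNT7B beside ATXN10 on chromosome 22 were at 0.05 and 0.1. UBAP2 and UBAP1 beside DCAF12 on chromosome 9 were at -0.09 and 0.1, and SKA1 and ELAC1 beside ME2 on chromosome 18 at 0.04 and -0.36. DESI2 and HNRNPU beside COX20 on chromosome 1 were at 0.04 and -0.02. In replicate 3, ELAC1 was at 0.53, so its signs were those of ME2 at a smaller size, and WNT7B was at -1.21, with 0.533 CPM in AEBP1 siRNA 3 and above 1 CPM in the other 5 libraries. The remaining neighbours of these 6 genes lay between -0.19 and 0.34 in replicate 3. Among them, PKIG at 0.34 and HNRNPU at 0.14 also had the signs of SERINC3 and COX20. Opposite signs in the 2 comparisons held for 56.2% of all genes tested, so nothing is read from such signs.

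ZNF253 and ZNF682, which flank ZNF93 on chromosome 19, stood at 0.7 and 0.84 in replicates 1 and 2 and at -1.27 and -0.64 in replicate 3. ZNF253 had 9.54, 9.39 and 18.6 CPM in the scrambled-labelled replicates 1, 2 and 3, and 13.2, 17.9 and 7.73 CPM in the siRNA-labelled replicates 1, 2 and 3. Both are zinc finger genes of the same cluster, and their courses followed that of ZNF93 with AEBP1 siRNA 1 nearer the middle for ZNF253. Transcripts of ZNF253 share stretches of sequence with ZNF93, so the counts of these 2 genes may not be independent. The median absolute log2 difference of the 14 neighbours in replicates 1 and 2 was 0.095, and 0 of them reached 2-fold.

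**Figure D3:**
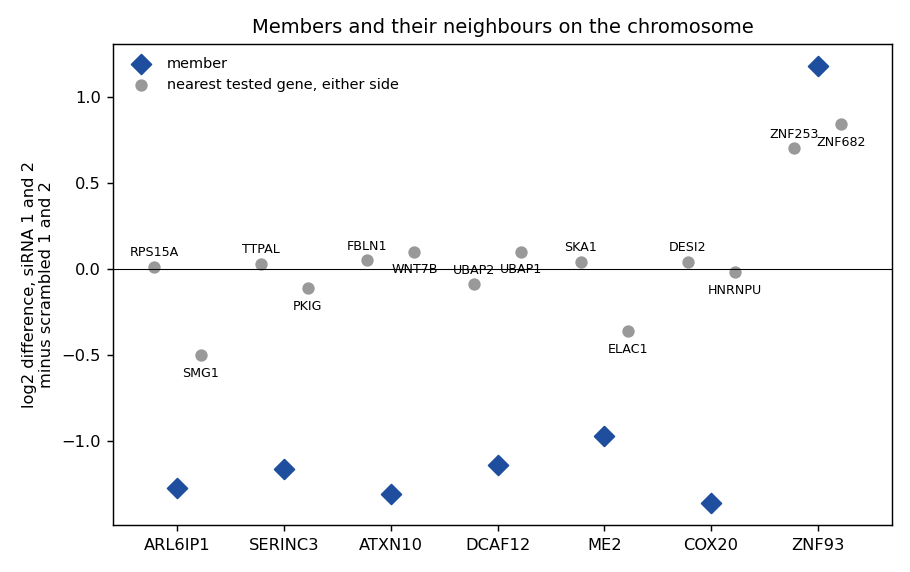
Log2 difference of AEBP1 siRNA 1 and 2 minus scrambled 1 and 2 (vertical) for each of the 7 genes (blue diamonds) and the nearest tested gene on either side (grey circles). Neighbours of the other 6 lie between -0.5 and 0.1, and both neighbours of ZNF93 lie above 0.6.

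ZNF93 belongs to a cluster of KRAB zinc finger genes at 19p12 that arose by tandem duplication. In replicates 1 and 2, 27 of 28 others that were tested were higher under the siRNA label, and 22 of these 28 (78.6%) were both higher there and lower in replicate 3, against 26.8% of all genes tested. Their median log2 difference was 0.65 in replicates 1 and 2 and -0.895 in replicate 3, where the medians over all genes tested were -0.0116 and 0.0043. Among those with a mean of at least 5 CPM, 18 of 18 had this course, as did 27.1% of all genes at that level. These related genes may share reads, as ZNF93 shares stretches of sequence with ZNF626, ZNF253 and ZNF506, so they are not independent counts. The list was also chosen with earlier results of these data known, and the shares are a description. Relative to each gene's mean of the 6 libraries, the list median was -0.4, -0.37 and 0.575 in scrambled 1, 2 and 3. It was 0.07, 0.505 and -0.275 in AEBP1 siRNA 1, 2 and 3, so AEBP1 siRNA 1 stood between the levels of the others. Zinc finger genes outside this list were not counted as a group, so the course cannot be called particular to 19p12. ZNF267, which is not in the list and was named above for its likeness to ZNF93, stood at 1.27 and -1.35.

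ZNF91, a repressor of SVA retrotransposons, had 14.1, 15.1 and 38.3 CPM in the scrambled-labelled replicates 1, 2 and 3, and 19.8, 35.7 and 17.3 CPM in the siRNA-labelled replicates 1, 2 and 3. ZNF100 had 11.7, 9.73 and 26.6 CPM and then 18, 20.4 and 9.91 CPM. The same course was shallower in ZNF90, at 33, 30.7 and 43 CPM and then 42.6, 40.5 and 29.9 CPM. ZNF43 was low, at 1.75 to 3.9 CPM. ZNF66, at 0.144 to 0.654 CPM, was the only one lower in replicates 1 and 2. Of the cofactors of these repressors, TRIM28, their common corepressor, was at 0.1 in replicates 1 and 2 and 0.05 in replicate 3. SETDB1, a histone methyltransferase recruited by TRIM28, was at 0.02 and -0.33, the signs of the zinc finger genes with a value near 0 in replicates 1 and 2. ZNF429 and ZNF486, at 1.09 and 1.02 in replicates 1 and 2, were the 2 that reached 2-fold. Across the labelled groups edgeR called 0 of the 30 genes of this list, cofactors included, with 0 at an unadjusted p under 0.05. With replicate 3 of both groups left out it again called 0, with 13 of 30 at an unadjusted p under 0.05, as were 4.7% of all genes in that fit, which is the contrast the set was picked on.

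**Figure D4:**
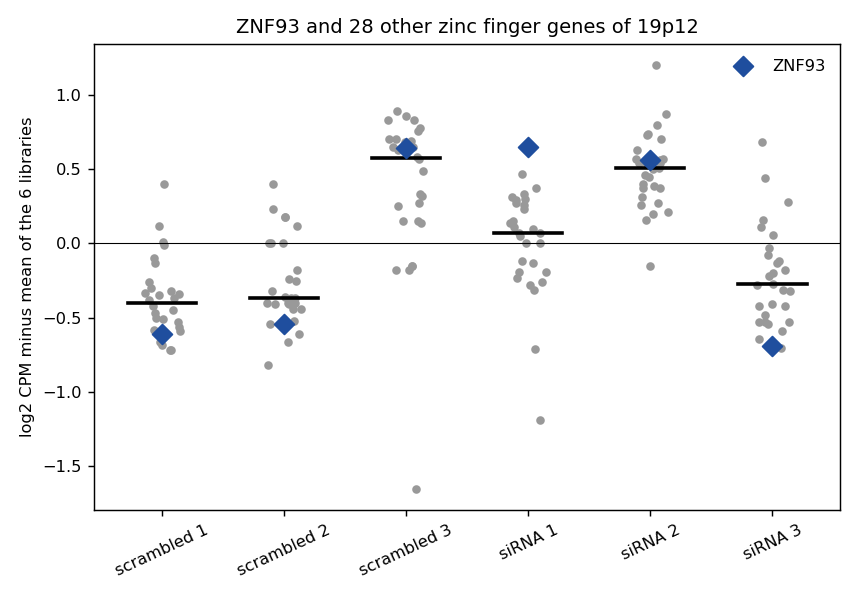
Log2 CPM minus the gene's mean of the 6 libraries (vertical) in each library, with 1 grey point for each of 28 zinc finger genes of 19p12, a black line at their median and blue diamonds for ZNF93. The median runs from -0.4 in scrambled 1 to 0.575 in scrambled 3, and ZNF93 lies above the median in AEBP1 siRNA 1.

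The lists of relatives of the other 6 genes had median log2 differences between -0.132 and 0.0658 in replicates 1 and 2, where the median of all genes tested was -0.0116. Over the 7 lists of relatives, 157 genes were tested, edgeR called 0 between the labelled groups with 0 at an unadjusted p under 0.05, and DESeq2 called 0. With replicate 3 of both groups left out edgeR also called 0, and 19 had an unadjusted p under 0.05, 13 of them in the zinc finger list, against 4.7% of all genes. Among 25 genes that shape the endoplasmic reticulum or are named with ARL6IP1, the median log2 difference in replicates 1 and 2 was -0.022. ARL6IP5, a membrane protein that regulates glutamate transport, was at 75.5 to 91.4 CPM in the 6 libraries and ARL6IP6 at 51.1 to 67.3 CPM. ARL6IP4 was at 59.2 to 92.8 CPM.

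Among 15 tested genes of the SERINC family and of serine lipid synthesis the median was -0.106. SERINC1, a paralogue of SERINC3, had 301, 311 and 354 CPM in the scrambled-labelled replicates 1, 2 and 3, and 312, 346 and 303 CPM in the siRNA-labelled replicates 1, 2 and 3. Its log2 difference was 0.1 in replicates 1 and 2 and -0.23 in replicate 3. SERINC2 and SERINC5 were at -0.06 and -0.07 in replicates 1 and 2. SPTLC3, the 1 gene of the list at least 2-fold lower there, was low, at 0 to 0.706 CPM. PSAT1 in this list, the gene nearest AEBP1 in profile, had 764, 719 and 389 CPM and then 435, 401 and 708 CPM.

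Among 23 genes of the CUL4 ligase the median was -0.0338. DDB1, the adaptor that DCAF12 binds, was at 399 to 442 CPM, and the scaffolds CUL4A and CUL4B were at 160 to 178 and 98.1 to 128 CPM. DCAF7, another receptor of this ligase, had 258, 280 and 172 CPM in the scrambled-labelled replicates 1, 2 and 3, and 126, 170 and 272 CPM in the siRNA-labelled replicates 1, 2 and 3, the same course as DCAF12 with a log2 difference of -0.88 in replicates 1 and 2. DCAF13 was at 0.01. CCT5, a chaperonin subunit recognised by DCAF12, ran the other way, with 450, 426 and 592 CPM and then 752, 595 and 436 CPM. CCT5 was highest in the library labelled AEBP1 siRNA 1. The log2 differences of CCT5 were 0.61 and -0.44 in replicates 1 and 2 and in replicate 3, and edgeR did not call it in either fit.

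Among 15 ataxins and partners of ATXN10 the median was -0.132, with ATXN1, ATXN2, ATXN3 and ATXN7 at -0.32, -0.11, -0.25 and -0.13. ATXN1 had 39.4 CPM in AEBP1 siRNA 1 and 64.8 to 80.1 CPM in the other 5 libraries. Its difference thus rests on the library that stood apart. ATXN7 had 77.6 and 86.5 CPM in scrambled 1 and 2, and 59.7 and 93.6 CPM in AEBP1 siRNA 1 and 2. ATXN2 and ATXN3 were also lowest in AEBP1 siRNA 1. Relative to each gene's mean, the list median was 0.00827 and 0.122 in scrambled 1 and 2, and -0.111 and 0.0406 in AEBP1 siRNA 1 and 2. Among 23 enzymes around ME2 the median was 0.0129. ME3, the other mitochondrial malic enzyme, was at 18.9 to 27.1 CPM with log2 differences of -0.13 and 0.2, and ME1, the cytosolic one, was at 1.57 to 2.88 CPM. MDH1 and MDH2, the malate dehydrogenases, were at 0.13 and 0.09 in replicates 1 and 2. Among 26 assembly factors of cytochrome c oxidase the median was 0.0658. SCO1 and TMEM177, which act with COX20 on COX2, were at 64 to 72.9 and 7.96 to 12.8 CPM, and COX18 was at 6.35 to 9.59 CPM. SCO2 was detected unevenly, at 0 CPM in scrambled 1 and 4.35 CPM in scrambled 2.

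How far the counts belong to each gene was checked on GENCODE v29 transcripts (GRCh38). Of the windows of 31 bases in the longest coding transcript, 0% of DCAF12 and of AEBP1 and 4.05% of SERINC3 also occurred in transcripts of another gene on either strand. The shares were 10.6% for ATXN10 and 10.5% for ME2. For ARL6IP1 22.8% was shared, 21.7% with AC138811.2, a gene that overlaps ARL6IP1 on the same strand and had 41 to 346 counts. For ZNF93 27% was shared with 119 genes, led by ZNF626 with 12.3% and followed by its neighbour ZNF253. Reads may thus have been split within the zinc finger family. For COX20 84.5% was shared, 81.2% with HNRNPU on the opposite strand. No source used here says whether counting used the strand, so reads from the shared part may have been counted for either gene. HNRNPU itself had 549, 541 and 540 CPM under the scrambled label and 511, 567 and 596 CPM under the other, and did not follow COX20. Since COX20 was at 5.5 to 18.7 CPM, a shift of that size would be hard to see in HNRNPU. The comparison thus cannot show which gene the reads of COX20 came from.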

How the data were processed

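Raw counts and FPKM, both deposited by the authors in 1 table, were read for 6 libraries grouped by the labels. The submitters' processing notes name the build hg19, and no source used here names the aligner, counter, annotation or strand setting. FPKM served as a second unit only. Rows without values (17) were left out, and 27 symbols turned into dates were restored by gene ID.

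Genes were kept by filterByExpr (16250 remained), and CPM used library sizes scaled by TMM. Labelled groups were compared by the quasi-likelihood F test (edgeR 4.0.16, R 4.3.3) with p-values adjusted by Benjamini and Hochberg over the whole table and a call at an adjusted p under 0.05. Standard errors are the absolute log2 fold change over the square root of F. Log2 differences between libraries used a prior count of 2. In simulated data for this comparison (16250 genes), 25.4%, 86.6% and 100% of genes changed 1.5-, 2- and 4-fold were recovered, and 13 unchanged genes were called. The changed genes all averaged 5 CPM or more and were changed alike in all 3 libraries under the siRNA label. The simulation thus does not show recovery of genes at lower levels, or of changes that run the other way in replicate 3.

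The 7 genes and the lists of relatives were chosen with earlier results of these data known. Other genes were named by a rule: set family members, the tested genes on either side, the 2 genes nearest in profile, and any relative called. Some genes that fall under it are not reported here. CCT5, PSAT1 within its list, SPTLC3, ZNF66, ZNF429, ZNF486, TRIM28, SETDB1 and AC138811.2 were named after their values were seen. Alternatives were a replicate block, left-out libraries, DESeq2 1.42.0 and its size factors, upper quartile scaling, other filters, and limma 3.58.1 on log2(FPKM + 1) or log2(FPKM + 0.1). RefSeq promoters matched 7 of 7 genes by symbol.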

Additional observations from a re-analysis of the deposited data

How the results depend on the processing

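The number of genes called between the labelled groups was 1 (the readthrough gene SENP3-EIF4A1, named after its value was seen), and the count stayed at 1 with DESeq2 size factors, upper quartile scaling, a mean of at least 5 CPM, log2(FPKM + 1) and replicate 3 of both groups left out. It was 2 with a replicate block, 3 with no filter beyond a nonzero total, 6 with DESeq2, 3 with log2(FPKM + 0.1), and 0 to 2 with single libraries left out, and the cause was not tested. The counts of the 7 genes and of relatives called were 0 under every one of these alternatives. The correlations between same-numbered libraries of their deviations from the labelled group means were 0.0961, -0.00776 and -0.102. Each mean rests on 3 libraries and includes replicate 3, where AEBP1 goes against the labels. These values therefore cannot show whether the numbers mark a shared culture or day. With the replicate block the log2 fold changes were -0.434 for ARL6IP1, -0.762 for COX20 and 0.391 for ZNF93, against -0.382, -0.936 and 0.341. With single libraries left out they ran from -0.934 to -0.164 for ARL6IP1, -0.877 to -0.142 for SERINC3, -0.95 to -0.15 for ATXN10, -0.861 to -0.069 for DCAF12, -0.697 to -0.12 for ME2, -1.32 to -0.694 for COX20 and 0.117 to 0.868 for ZNF93. With replicate 3 of both groups left out they were -1.27, -1.16, -1.3, -1.14, -0.968, -1.37 and 1.19. No estimate of these 7 genes changed sign under the alternatives run. With AEBP1 included, the differences in replicates 1 and 2 and in replicate 3 moved by at most 0.04 with other scalings of the counts. With the deposited FPKM they moved by at most 0.159. That largest shift was of AEBP1 itself in replicates 1 and 2, from -0.833 to -0.674.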
